A study of Mus musculus with 25 samples.

Results

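Histone methyltransferases (writers) and histone demethylases (erasers) were followed in sperm RNA from male mice on 5 diets. The 41 genes were taken by mouse symbol from the 47575 genes of the table, and each symbol matched 1 Ensembl gene. All 41 passed the filter on low values, a mean normalised count of at least 5, as did 28311 genes in all. The groups were 5 males each on low-protein diet (LPD), LPD with added methyl donors (MD-LPD), Western diet (WD), WD with added methyl donors (MD-WD) and control diet (CD). LPD and MD-LPD held 9% casein and 24% sugar, WD and MD-WD held 34% sugar, 19% casein, 20% fat from milk and 0.15% cholesterol, and CD held 21% sugar and 18% casein with neither milk fat nor cholesterol. The methyl donors, added per kg of diet, were 5 g choline chloride, 15 g betaine, 7.5 g methionine, 15 mg folic acid and 1.5 mg vitamin B12. They were added to unlike bases, since the paper lists D,L-methionine in CD and LPD but none in WD, and more vitamin mix in WD. It also lists corn oil in all diets, with more in CD and LPD than in WD. Its listed folic acid is lower in MD-WD than in WD, which conflicts with the stated addition. All males were C57/BL6J and were fed their diets for at least 8 weeks. They stayed on these diets after mating until live sperm were collected from the cauda of the epididymis by swim-up, each library coming from 1 male.

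Writers place methyl groups on lysines of histones with S-adenosylmethionine as the donor, and erasers remove them either through a flavin cofactor or through a JmjC domain that needs iron and 2-oxoglutarate. Methylation of H3K4 and H3K36 is known for active genes and that of H3K9 and H3K27 for silent ones. During spermatid maturation most histones are replaced by protamines and transcription ceases, so mature sperm carry RNA made earlier, and the RNA of these genes does not show the activity of their proteins.

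Totals were 32455480 to 54108158 reads per library, and mitochondrial transcripts took 5.31% to 39.4% of them. The normalised counts of MD-WD male 16 summed to its reads, 36533901, so this library is not shown to have been scaled. The label of sperm was checked with marker genes. All 15 markers of sperm and late spermatids had reads in every library, and their summed normalised count was 250644 to 1587603 in WD, 326924 to 1687110 in MD-WD, 104097 to 1464409 in LPD, 141536 to 1156812 in MD-LPD and 269213 to 586266 in CD. Somatic RNA was present as well: the epididymal gene Crisp1 had 77064 to 439753 normalised counts, and the leukocyte gene Ptprc 1603 to 37506, while Lcn5, an epididymal marker, was at 0 in all libraries of the 4 groups other than CD. Cd79a, a B cell gene, stood at 3516 to 4768 in MD-LPD male 9, MD-WD males 14 and 16 and CD male 10, and at 122 to 1984 in the other 21 libraries. LPD male 15 stood apart in Col1a1, with 84206. In bulk RNA of this kind, fewer cells of a type and less RNA per cell cannot be told apart. Male 15 of LPD, MD-LPD and CD, 3 libraries, carried a treatment entry for a different diet from that in the title, which set the group.

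The Ezh and Ehmt paralogs are set against each other below, so their promoter windows are shown, in lower case with the letters GGGCGG, or CCGCCC on the other strand, in capitals. Each window is 300 bases from RefSeq on GRCm38.p6, read 5′ to 3′ along the gene. Ezh1 is at chr11:101226414-101226713 on the minus strand and Ezh2 at chr6:47594981-47595280 on the minus strand. Ehmt1 is at chr2:24919560-24919859 on the minus strand and the upstream of the Ehmt2 windows at chr17:34898224-34898523 on the plus strand.
Ezh1: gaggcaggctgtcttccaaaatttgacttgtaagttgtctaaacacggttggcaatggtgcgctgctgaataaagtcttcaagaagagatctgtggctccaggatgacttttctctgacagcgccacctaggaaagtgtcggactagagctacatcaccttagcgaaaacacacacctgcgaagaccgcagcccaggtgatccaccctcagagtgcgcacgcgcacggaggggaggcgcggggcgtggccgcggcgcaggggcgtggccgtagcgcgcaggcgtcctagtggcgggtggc
Ezh2: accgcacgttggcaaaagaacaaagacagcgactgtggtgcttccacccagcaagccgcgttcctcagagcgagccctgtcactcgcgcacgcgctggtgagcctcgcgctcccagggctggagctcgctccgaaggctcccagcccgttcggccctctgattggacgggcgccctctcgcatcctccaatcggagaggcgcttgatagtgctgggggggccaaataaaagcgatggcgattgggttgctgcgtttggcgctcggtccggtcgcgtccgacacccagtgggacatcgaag
Ehmt1: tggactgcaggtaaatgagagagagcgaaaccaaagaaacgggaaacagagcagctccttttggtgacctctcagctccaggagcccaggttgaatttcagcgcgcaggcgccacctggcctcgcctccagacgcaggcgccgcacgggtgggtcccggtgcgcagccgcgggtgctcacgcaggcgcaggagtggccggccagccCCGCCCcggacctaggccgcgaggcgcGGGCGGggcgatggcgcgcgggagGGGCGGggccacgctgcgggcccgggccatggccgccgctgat
Ehmt2: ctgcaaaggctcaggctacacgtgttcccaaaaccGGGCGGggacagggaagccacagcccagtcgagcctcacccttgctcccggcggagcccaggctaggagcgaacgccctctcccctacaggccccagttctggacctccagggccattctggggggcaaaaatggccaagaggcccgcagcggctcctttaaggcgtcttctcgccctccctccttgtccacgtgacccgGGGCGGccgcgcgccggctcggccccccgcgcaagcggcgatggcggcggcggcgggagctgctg

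Promoters were found for 28 of the 41 members, in 39 windows. GGGCGG, on either strand, was in 26 of the 39 windows, or 66.7%, against 35.7% of all 32851 promoter windows. Neither Ezh window held it, and both Ehmt windows did. The members' windows had a median of 28 CG dinucleotides, against 7 over all windows. CCGGAAG was in 7.69% of member windows and 8.86% of all, TGACGTCA in 2.56% and 1.79%, GCGCATGC in 2.56% and 2.71%, and TTCCCGC in 10.3% and 4.6%, each on either strand, and overlaps between motifs were not removed. These are matches of letters only.

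The members were well represented. Per kb of exon their mean normalised count had a median percentile of 84.2 among the genes tested, and the library with the fewest reads for a member still had 65 reads, for Prdm9. Ehmt2, which with its partner Ehmt1 methylates H3K9, was highest with 1252 per kb, followed by Kmt2d, an H3K4 methyltransferase of enhancers, with 744 and Kdm6b, an H3K27 demethylase, with 635. Lowest were Suv39h2, an H3K9 trimethylase known from the germ line, with 25.4 per kb, Prdm9, which marks meiotic recombination hotspots with H3K4 methylation, with 36.4, and Smyd3, a SET and MYND domain methyltransferase, with 41.9. The length is that of all annotated exons of a gene merged, so comparisons between genes per kb depend on the annotation. By mean normalised count Prdm9, at 184, was below Suv39h2, at 256. The neighbours in this order, Kdm6b and Setd2 at 566 per kb, were less far apart than the spread of Kdm6b over libraries. Across libraries Suv39h2 ranged most, from 93.6 in LPD male 12 to 473 in MD-WD male 12, or 5.05-fold, and Kdm4a least, 1.41-fold.

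The members of the pairs shown above lie, on GRCm39, at chr11:101081934-101117315 for Ezh1, chr6:47507073-47572331 for Ezh2 and chr2:24679940-24809696 for Ehmt1, all on the minus strand, and at chr17:35117256-35133048 on the plus strand for Ehmt2, and the counts are over all their exons. Suv39h2 had 352, 453, 223, 383 and 146 normalised counts on WD, 246, 259, 473, 296 and 418 on MD-WD, 438, 164, 93.6, 205 and 138 on LPD, 192, 343, 153, 164 and 233 on MD-LPD and 253, 245, 168, 140 and 217 on CD. No diet group stood clear of CD, and in every group, CD included, the highest male was that of the highest sperm marker sum. Prdm9 had 186, 77.0, 210, 146 and 136 on WD, 181, 187, 142, 208 and 252 on MD-WD, 174, 223, 161, 88.2 and 160 on LPD, 226, 158, 189, 203 and 205 on MD-LPD and 243, 214, 243, 223 and 175 on CD, with WD male 11 lowest of all. Smyd3 had 464 to 616 on WD, 532 to 949 on MD-WD, 478 to 579 on LPD, 537 to 704 on MD-LPD and 411 to 997 on CD.

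Among the writers of H3K36 methylation, Setd2, which trimethylates it, averaged 6242 normalised counts over the 25 libraries and Nsd1, which mono- and dimethylates it, 10429. PRC2, which methylates H3K27, had its core subunits Ezh1 at 210 per kb, Suz12 at 194, Ezh2 at 123 and Eed at 107 as means over the libraries. Ezh1 was above Ezh2 per kb in 20 libraries and below it in 5. Among the erasers, Kdm4a, Kdm2a and Kdm5b stood at 347, 333 and 289 per kb, and the flavin enzymes Kdm1a and Kdm1b, both of which act on H3K4, at 237 and 57.7.

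**Figure D1:**
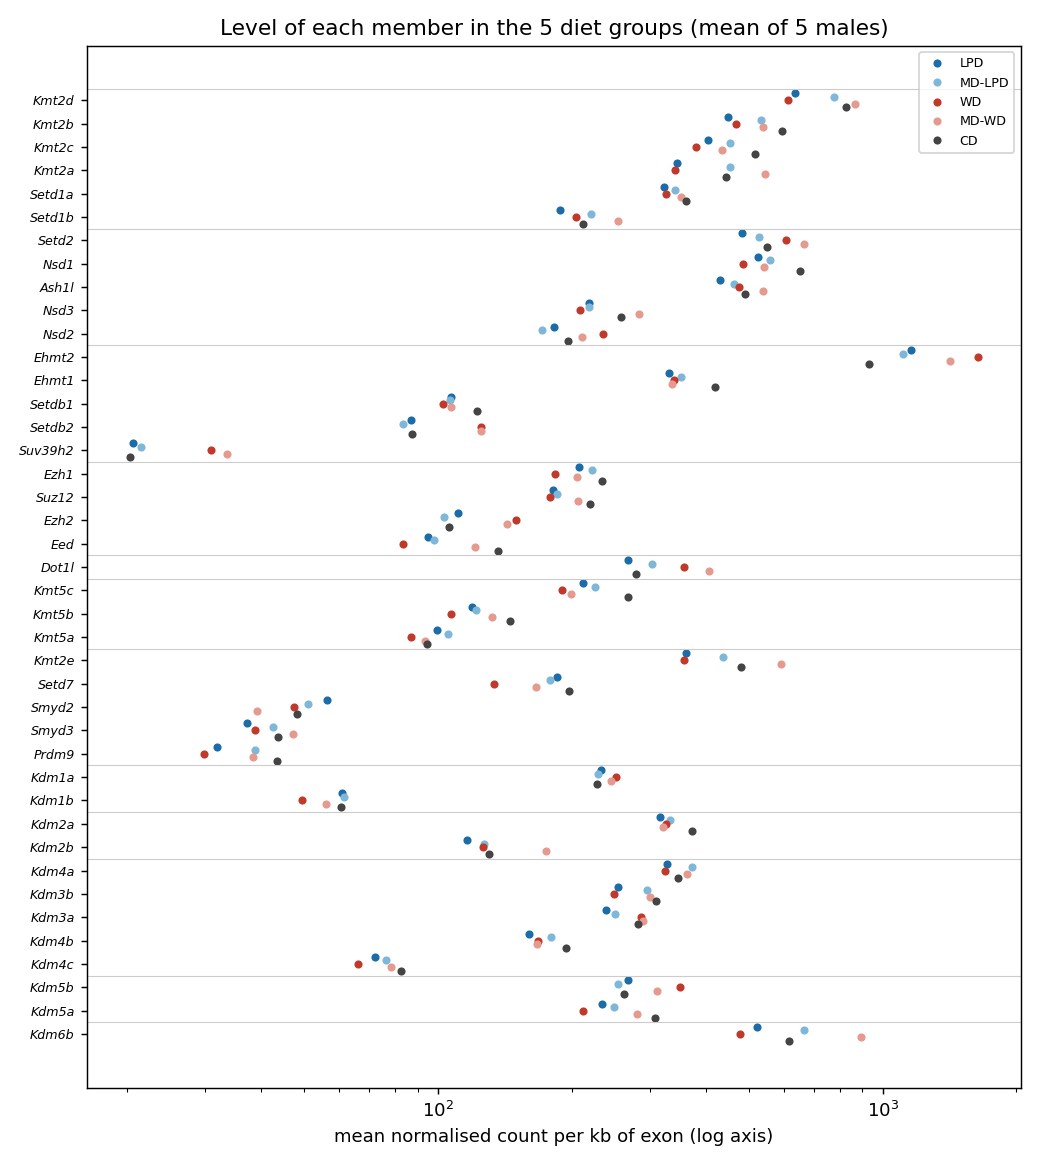
Mean normalised count per kb of exon (log axis) of each member, ordered by role, with 1 point per diet group and lines between roles. Ehmt2 is farthest right and Suv39h2 farthest left, at 1252 and 25.4 per kb over all libraries.

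No member and no gene was called at an adjusted p under 0.05 by limma in any of the 6 comparisons, so 0.0% is the background at that threshold, and edgeR called 0 as well. Against CD, DESeq2 called 123 genes for WD, 56 for MD-WD, 42 for LPD and 18 for MD-LPD. It also called 16 for MD-LPD against LPD and 12 for MD-WD against WD, and 0 members among all of these. What follows at an unadjusted p under 0.05 is therefore a description, with the share of all genes beside each count. The limma p-values weigh each difference against the spread between the males sampled, estimated over all 5 groups and moderated over the genes tested.

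In WD against CD, 12 members were lower and 1 higher with an unadjusted limma p under 0.05, where 8.1% of all genes tested were lower and 8.17% higher. The median log2 difference of the members was −0.23, against 0.03 over all genes, with 30 members lower and 11 higher. DESeq2 gave 12 lower and 1 higher, edgeR 5 and 2, and scaling by TMM 5 and 1. By role, the log2 difference was below 0 for all 6 H3K4 methyltransferases of the COMPASS family and all 3 H4K20 methyltransferases. It was above 0 for 3 of the 5 H3K9 methyltransferases, where 51.6% of all genes were above 0. Of these, 3, 2 and 1 had an unadjusted limma p under 0.05. Some of the differences were small, such as −0.03 for Setd1b, whose groups overlapped. The sperm marker sum also differed, with a median of 1041569 in WD and 410950 in CD. With that sum as a covariate, 7 members were lower and 1 higher, and without WD male 10, 11 or 13 or CD male 14, the lower members numbered 6, 5, 7 and 6. Scaled to equal totals, 40 of 41 members had a log2 difference below 0, with a median of −0.77 against −0.49 for all genes.

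Nsd1, an H3K36 methyltransferase, had 8490, 7941, 9615, 8683 and 11021 normalised counts in WD sperm, against 12534, 11519, 12511, 13435 and 11612 in CD sperm. Every WD value lay below every CD value, and the log2 difference was −0.44 ± 0.14 (SE, limma adjusted p = 0.226). Eed, which binds H3K27me3 within PRC2, and Kdm5a, an H3K4 demethylase, also had groups apart, so that 3 of 41 members lay below CD in this way, where 2.56% of all genes did, and 0 above, where 1.29% did. Setd7, which adds a single methyl group to H3K4, had 1224, 1273, 1477, 1281 and 1960 in WD sperm, against 2246, 1939, 2181, 2393 and 1916 in CD sperm. WD male 14 overlapped the CD males. Its log2 difference was −0.58 ± 0.20 (SE, limma adjusted p = 0.228), and −0.35 with the sperm sum as a covariate. Ehmt2 was the 1 member higher, with 10112, 14340, 6987, 10334 and 5399 in WD sperm, against 4733, 5357, 5444, 5721 and 5552 in CD sperm, a log2 difference of 0.74 ± 0.29 (SE, limma adjusted p = 0.245). WD male 14 fell within the CD range.

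**Figure D2:**
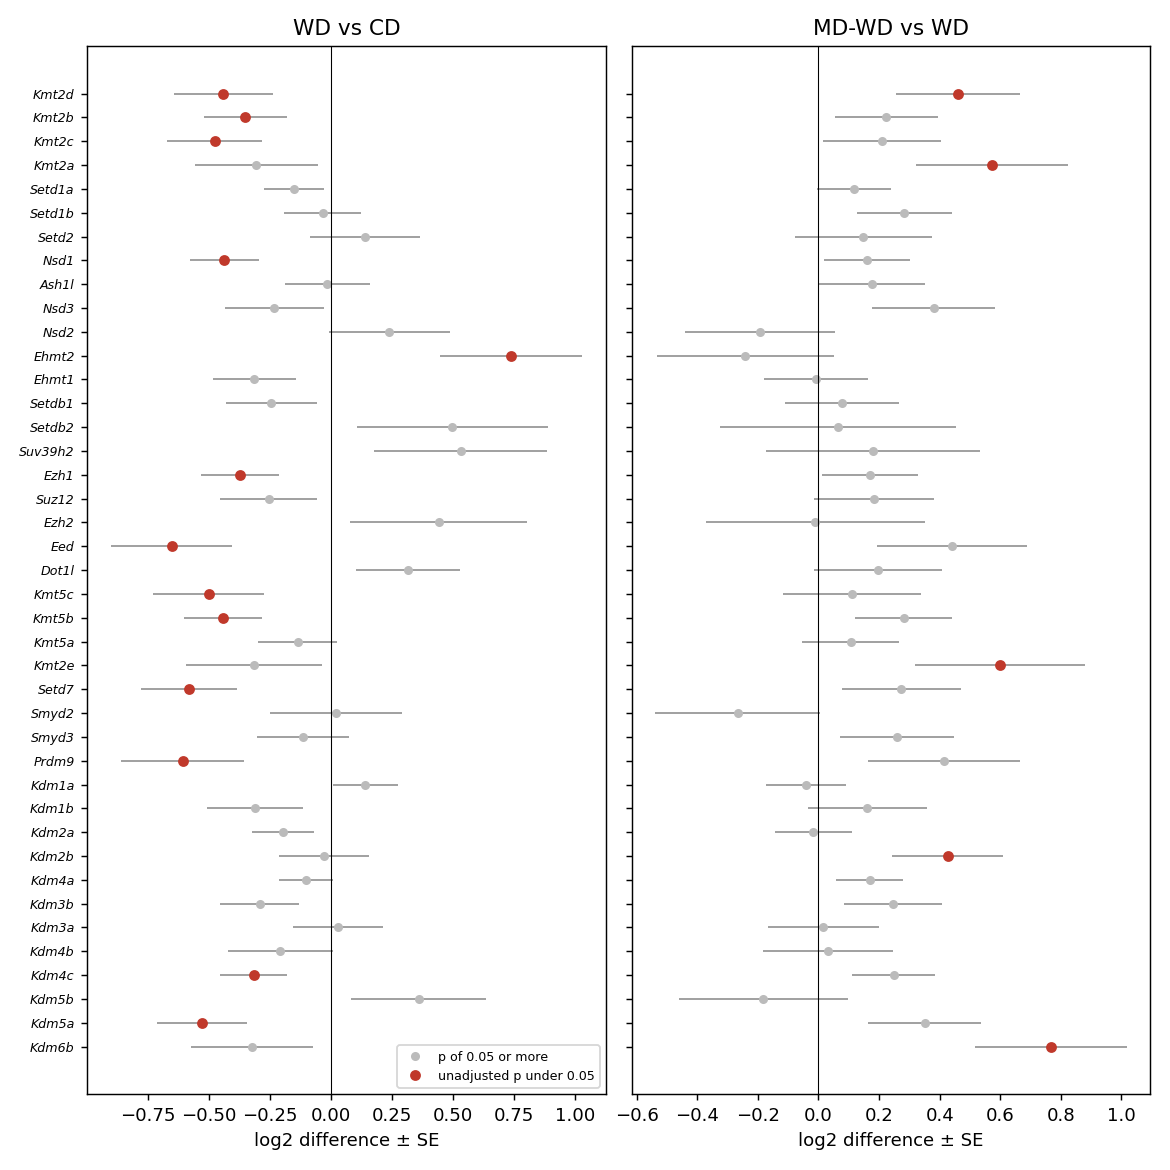
Log2 difference of each member (point) with its standard error (line), in WD against CD on the left and in MD-WD against WD on the right, red where the unadjusted limma p is under 0.05. On the left 12 red points lie below 0 and 1 above, and on the right all 5 lie above 0.

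Methyl donors on the Western diet went with higher values of 5 members in MD-WD against WD and lower values of 0, with an unadjusted limma p under 0.05, where 4.76% of all genes were higher and 0.788% lower. The median of the members was 0.18, against −0.03 over all genes, and 33 of 41 were higher. The 5 were Kdm6b, Kdm2b, an H3K36 demethylase, the H3K4 methyltransferases Kmt2a and Kmt2d, and Kmt2e, a SET and PHD protein. Kdm6b had 4097, 4527, 4020, 6448 and 11951 normalised counts in MD-WD sperm, against 3659, 3012, 3053, 3461 and 3449 in WD sperm. All MD-WD values lay above all WD values, a pattern 0.48% of all genes had in this direction and 0.127% in the other. The log2 difference was 0.77 ± 0.25 (SE, limma adjusted p = 0.896). The 2 highest values belong to males 14 and 16, which also had the high Cd79a, and without the 4 libraries of highest Cd79a the difference was 0.34 and 1 member had p under 0.05. Leaving out MD-WD male 14 or male 16 alone also left 1, WD male 11 left 2 and WD male 12 left 3, while leaving out MD-WD male 9 gave 8 and male 12 gave 10. Scaled to equal totals 1 was left, by TMM 3, and without the 3 libraries of conflicting label 3. DESeq2 gave 9.

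Those 4 libraries stood apart for a set of members. Kmt2e had 10605 in MD-LPD male 9, 10728 and 16741 in MD-WD males 14 and 16 and 14469 in CD male 10, against 4539 to 6658 in the other 21 libraries. In all, 7 members were higher in each of the 4 than in any of the 21, namely Kmt2e, Kdm6b, Kmt2a, Nsd3, Kdm2b, Smyd3 and Setd1b, with ratios of means of 2.29 to 1.41, where 4.39% of all genes tested were higher in this way, and 0 members were lower, where 0.445% of all genes were. Since these libraries were picked by Cd79a, this is a description with no test, and the part of blood or immune cell RNA in it was not tested. The leukocyte marker Ptprc was 15177 to 37506 in the 4 and 1603 to 8806 in the others. Not all leukocyte markers set the 4 apart. Cd3e was 266 to 1276 in the 4 and 110 to 387 in the others, and Lyz2 was highest in LPD male 15, with 29158. The 10 leukocyte markers summed to 48411 in MD-LPD male 9 and 61183 in CD male 10, but to 56622 in LPD male 15.

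**Figure D3:**
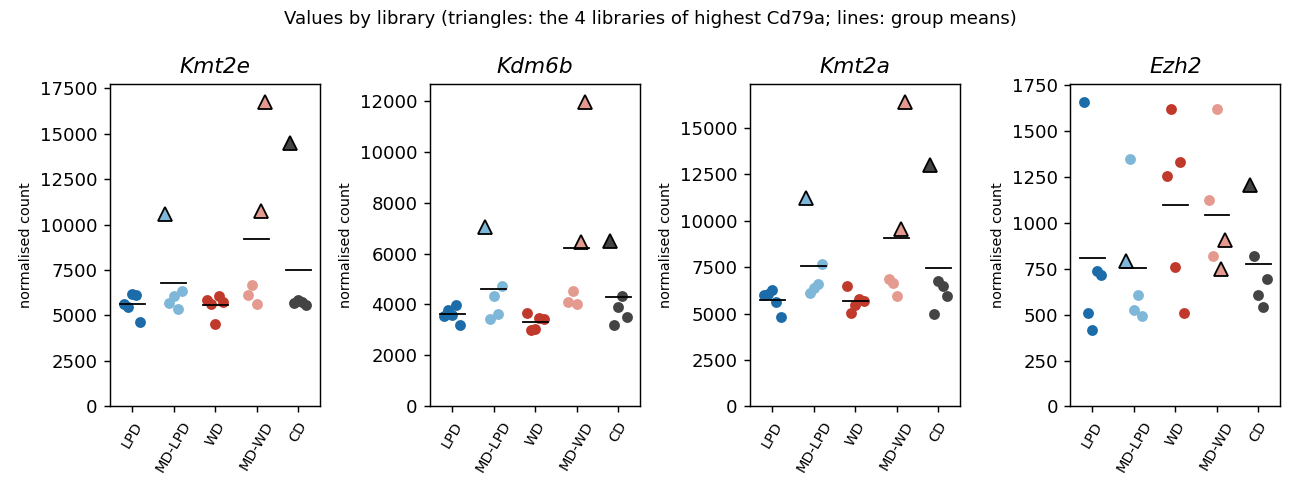
Normalised count (vertical axis) of Kmt2e, Kdm6b, Kmt2a and Ezh2 in each library by diet group, with lines at group means and triangles for the 4 libraries of highest Cd79a. The triangles are the highest points for Kmt2e, at 10605 to 16741, while for Ezh2 they lie among the other libraries.

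In MD-WD against CD, 2 members were higher and 0 lower with an unadjusted limma p under 0.05, where 5.97% of all genes were higher and 4.39% lower, and the median of the members was −0.03 against 0.11 over all genes. Dot1l, the H3K79 methyltransferase, had 3554, 2664, 5063, 3280 and 4272 in MD-WD sperm, against 2835, 2346, 2508, 2703 and 2512 in CD sperm. Only MD-WD male 10 overlapped CD, and the log2 difference was 0.51 ± 0.21 (SE, limma adjusted p = 0.481). Kdm2b had 1431, 1476, 1653, 2123 and 2845 in MD-WD sperm, against 1950, 1133, 1367, 1285 and 1370 in CD sperm, with CD male 10 above 3 MD-WD males. No member had these groups apart, where 1.93% of all genes lay above CD in this way and 1.89% below. These counts turned on single males: 9 higher and 3 lower without CD male 10, 4 and 1 without MD-WD male 9, 4 and 0 without MD-WD male 10, 1 and 0 without MD-WD male 14 or CD male 11, 12, 14 or 15, and 0 and 2 without MD-WD male 16. Without the 4 libraries of highest Cd79a they were 0 and 4. Equal totals gave 0, edgeR 5 and DESeq2 7 in all.

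In LPD against CD, 3 members were lower and 0 higher with an unadjusted limma p under 0.05, where 3.76% of all genes were lower and 4.8% higher. The median of the members was −0.18, against −0.04 over all genes, with 37 lower and 4 higher. The 3 were Kmt2b, an H3K4 methyltransferase, Nsd1 and Kdm5a. Kmt2b had 4498, 5099, 5402, 3020 and 4171 in LPD sperm, against 4750, 5389, 6319, 7063 and 5758 in CD sperm, a log2 difference of −0.42 ± 0.17 (SE, limma adjusted p = 0.561). The groups overlapped, and LPD male 13 was lowest. Kdm5a had 3332, 3814, 4001, 2897 and 3785 in LPD sperm, against 6023, 4239, 4278, 4753 and 4143 in CD sperm, and was the 1 member with groups apart, where 1.2% of all genes lay below CD in this way and 0.65% above. Without LPD male 13 or CD male 14 no member was left at p under 0.05, without LPD male 11 or 12 there were 7 and 8, without WD male 11 or MD-WD male 16, whose libraries share the estimate of the spread, there were 6 each, and without CD male 10, 11 or 15 there were 5 each. By edgeR, TMM or equal totals there were 0, by DESeq2 6, and with the sperm sum as a covariate 11 lower and 1 higher.

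In MD-LPD against CD no member passed an unadjusted p of 0.05 by limma, edgeR or DESeq2, where limma had 1.79% of all genes higher and 1.43% lower. The member median was −0.09 against −0.01. Eed and Kdm5a had the lowest p. Eed had 282, 330, 445, 417 and 411 normalised counts in MD-LPD sperm, against 853, 467, 435, 488 and 384 in CD sperm, with overlap of the groups. Kdm5a had 3129, 3335, 3961, 4404 and 4169 in MD-LPD sperm, against 6023, 4239, 4278, 4753 and 4143 in CD sperm, and the groups overlapped here too. Nsd1 was the 1 member with groups apart, at 9663 to 11437 in MD-LPD sperm, against 11519 to 13435 in CD sperm, where 0.6% of all genes lay below CD in this way and 0.424% above. In MD-LPD against LPD no member passed by limma or edgeR and 1 by DESeq2, where limma had 0.925% of all genes higher and 0.668% lower. Kdm4a, an H3K9 and H3K36 demethylase, had 2358, 2118, 2241, 2389 and 2085 in MD-LPD sperm, against 1904, 1964, 2142, 1875 and 1972 in LPD sperm, of which LPD male 12 reached into the MD-LPD range. Setd1b, an H3K4 methyltransferase, was the 1 member with groups apart, at 2473 to 3044 in MD-LPD sperm, against 1958 to 2466 in LPD sperm, where 0.184% of all genes lay above LPD in this way and 0.0636% below.

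The effect of methyl donors was set against the base diet with an interaction, MD-WD over WD minus MD-LPD over LPD. No member passed an unadjusted p of 0.05 by limma, edgeR or DESeq2, where limma had 0.749% of all genes higher and 0.318% lower, so the higher members of MD-WD against WD are not shown to differ from MD-LPD against LPD.

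Across the 25 libraries, some members followed the sperm marker sum, in both directions, as many other genes did. Ezh2, the H3K27 methyltransferase of dividing cells, had normalised counts of 1256, 1623, 760, 1330 and 507 on WD, 1126, 817, 1618, 750 and 905 on MD-WD, 1660, 510, 419, 741 and 716 on LPD, 793, 1350, 526, 609 and 490 on MD-LPD and 1208, 819, 607, 541 and 695 on CD. High and low males were found in every group. On log2 scales Ezh2 had r = 0.95 with the sum (rho = 0.93, permutation p = 1e-05 for both, the smallest that 100000 resamples can give, adjusted p = 9.11e-05 for r), and r = 0.94 without the 2 libraries farthest from the median of the sum, LPD male 12 and MD-WD male 12. Its paralog Ezh1, which serves PRC2 in resting cells, ran the other way, with r = −0.82 (rho = −0.77, permutation p = 1e-05 and 3e-05, adjusted p = 9.11e-05 for r) and −0.81 without those libraries. With group means subtracted the values were 0.95 and −0.83.

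Over the 82 correlations computed, 41 members with each of 2 sums, adjusted together, 11 members had a positive and 12 a negative r with the sperm sum at an adjusted p under 0.05. With 1 limma slope per gene over all 28311 genes, added after seeing the data and adjusted over all of them, 11 members were positive and 13 negative, where 25.8% of all genes were positive and 24.9% negative, so the members' shares, 26.8% and 31.7%, stood near or a little above those of all genes. After Ezh2, the highest were the H3K4 demethylase Kdm5b with r = 0.95, Ehmt2 with 0.90 and the H3K9 methyltransferase Setdb2 with 0.89. The lowest were Setd7 with −0.84, Ezh1, and the H3K4 demethylase Kdm1b with −0.72. Others were not called, such as Ehmt1 with r = −0.27 (permutation adjusted p = 0.258). The order depends on the scaling in part: with equal totals the counts were 2 positive and 30 negative, Setd2, Dot1l, Kdm3a, Kdm1a and Ash1l turned negative, and Ezh2 had r = 0.59 and Setdb2 0.53, but Kdm5b only 0.21 and Ehmt2 0.21, while with TMM the counts were 10 and 19. These genes were named after their values were seen. The second sum, of markers of epididymis, leukocytes, fibroblasts, smooth muscle and endothelium, had 1 positive and 18 negative, but 27 positive and 1 negative with equal totals. By the limma slope it had 1 positive and 8 negative, where 1.85% of all genes were positive and 2.12% negative. With group means subtracted the second sum had 1 positive and 15 negative. Without the 2 libraries farthest from its median, CD male 10 and MD-WD male 16, Kmt2e went from r = −0.58 to −0.24. Eed went from −0.48 to −0.095, while Ash1l went from −0.78 to −0.65. Epididymal markers made up 256180 of the sum of 305409 in LPD male 10 and 94383 of 185681 in MD-WD male 16.

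**Figure D4:**
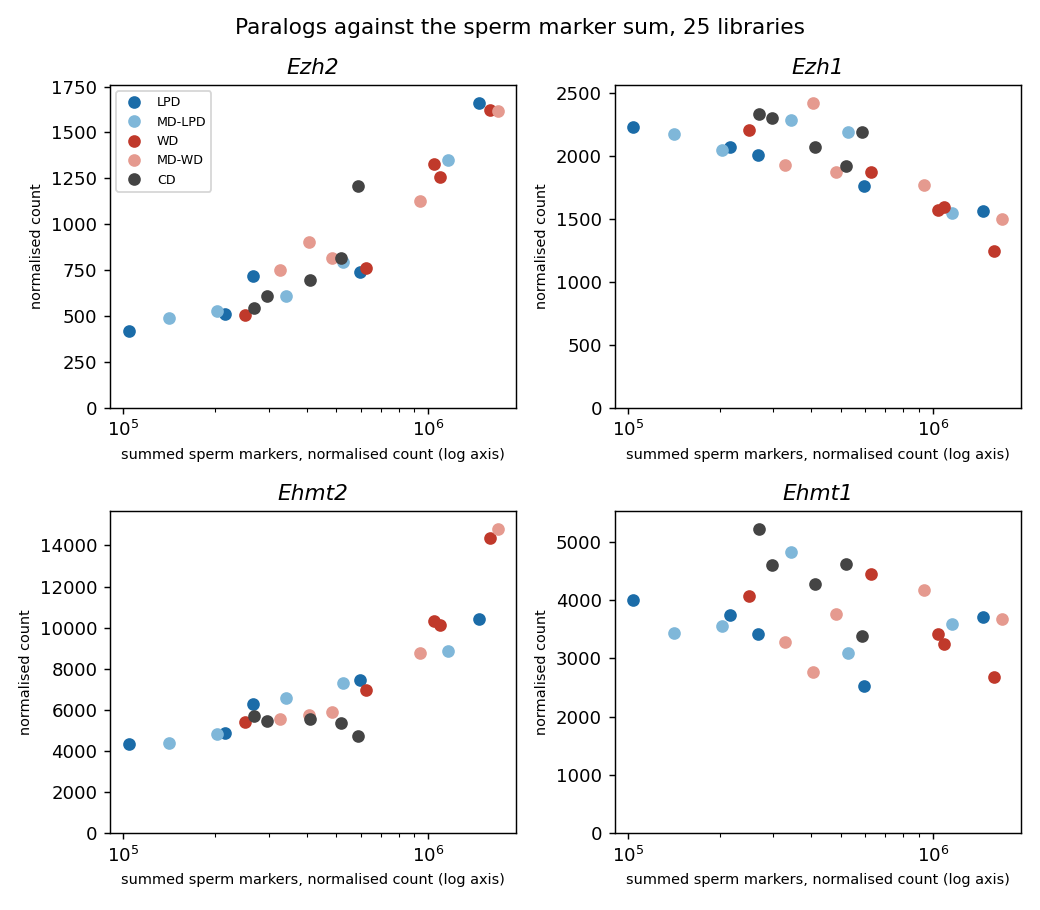
Normalised count of Ezh2, Ezh1, Ehmt2 and Ehmt1 (vertical axes) against the summed sperm markers (log axis), 1 point per library and colours for diet groups. Over all 25 libraries together, Ezh2 climbs with the sum (r = 0.95) while Ezh1 declines (r = −0.82).

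**Figure D5:**
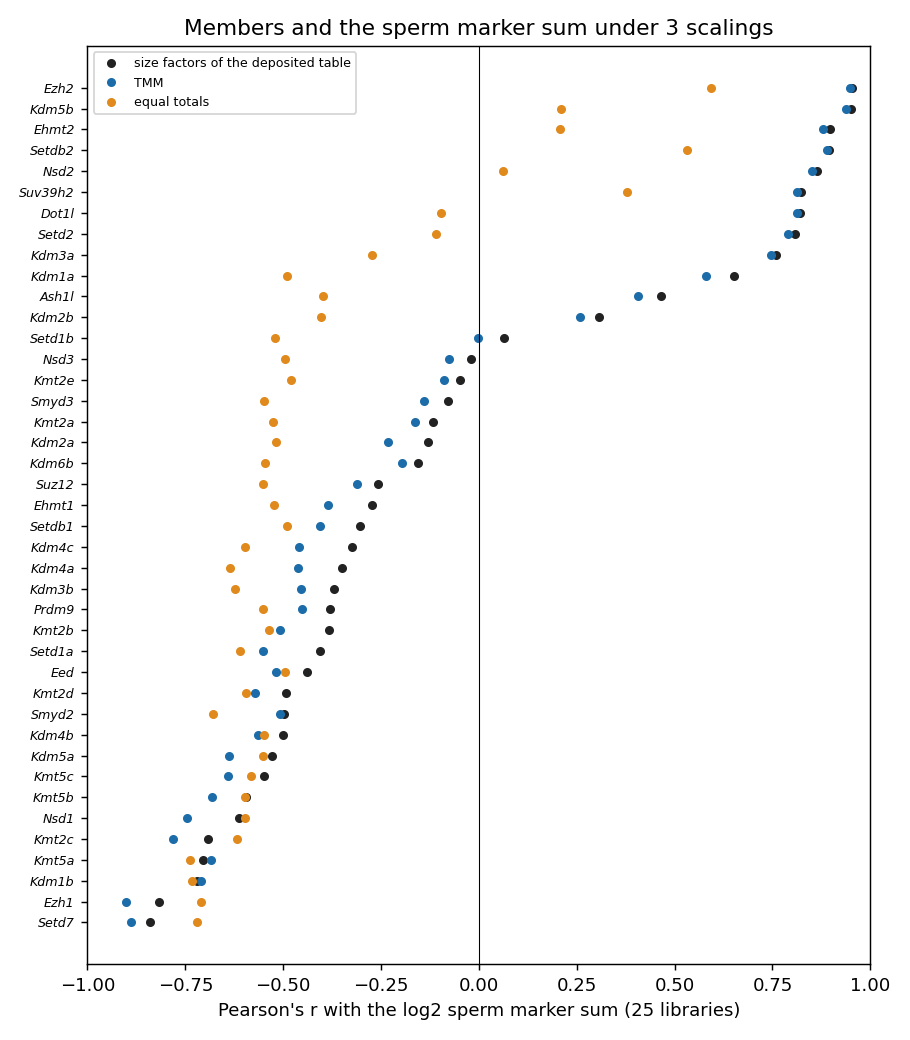
Pearson's r of each member with the sperm marker sum over 25 libraries, under the deposited size factors (black), TMM (blue) and equal totals (orange). Ezh2 stays positive and Ezh1 and Setd7 stay negative in all 3, while members such as Dot1l cross 0 under equal totals.

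Ratios of paralogs within a library do not depend on its scaling. The ratio of Ezh1 to Ezh2 spanned 0.768 in WD male 11 to 5.32 in LPD male 12, and that of Ehmt1 to Ehmt2 0.187 to 0.922 in the same males. Of 36 ratio tests, 6 pairs in 6 comparisons, none had an adjusted p under 0.05, the smallest exact p possible being 0.00794. Ehmt1 over Ehmt2 was 0.445 ± 0.238 in WD and 0.820 ± 0.0780 in CD (SD), a log2 difference of −1.05 (exact permutation p = 0.0159, adjusted 0.286), and 0.486 ± 0.150 in MD-WD against the same CD libraries, a log2 difference of −0.82 (exact permutation p = 0.00794, adjusted 0.286). This ratio also varied within WD, at 0.187 in male 11 with a sperm marker sum of 1587603 and 0.752 in male 14 with 250644, and the sum's part in the difference from CD was not tested. Kmt2c over Kmt2d was 0.670 ± 0.103 in MD-WD and 0.811 ± 0.0510 in CD (SD), a log2 difference of −0.29 (exact permutation p = 0.0238, adjusted 0.286).

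Other genes of the pathway were also without calls by limma. At an unadjusted p under 0.05, of 24 further lysine writers and erasers 6 were lower and 0 higher in WD against CD, where 8.1% of all genes were lower and 8.17% higher. The same list had 5 lower and 1 higher in LPD, 1 and 0 in MD-LPD and 2 and 0 in MD-WD against CD, and 0 between diets with and without methyl donors. Of 30 complex subunits and readers 2 were lower in WD against CD, 1 was higher in MD-WD against CD and 2 were higher in MD-WD against WD. Of 32 genes of methyl donor supply 1 was lower in WD, 3 were lower in MD-WD and 1 was higher in LPD against CD. Of 9 arginine methyltransferases there were 0 in both directions in all 6 comparisons. The shares of all genes are those given above for each comparison. Kdm5d, the Y-linked H3K4 demethylase, had 998.8 ± 323.5 in WD and 1787 ± 281 in CD (SD), a log2 difference of −0.90 (limma adjusted p = 0.220). Mat2a, which makes S-adenosylmethionine, had 3231 ± 1190 in WD and 4919 ± 1165 in CD (SD), a log2 difference of −0.64 (limma adjusted p = 0.289). The gene of lowest p among the lysine writers and erasers was Kdm5d in LPD and MD-LPD against CD as well, Uty, a Y-linked relative of an H3K27 demethylase, in MD-WD against CD, Riox1 in MD-LPD against LPD and Riox2 in MD-WD against WD, all with limma adjusted p of 0.481 or more.

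Some members share exons with other genes in the annotation. Setd1a shares 51.5% of its exonic bases with Gm49388 on the same strand, and Suv39h2 52.4% with genes such as Dclre1c on the opposite strand. In all, 8 members share over 10% on the opposite strand. Besides Suv39h2 these are Smyd2 with 38.1%, Setdb1 with 23.5%, Kdm1b with 22.75%, Nsd2 with 17.3%, Kmt2c with 16.85%, Dot1l with 14.2% and Kdm1a with 11.3%. The libraries kept strand, but whether counting used it is not given in the sources used here, so these values are uncertain.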

How the data were processed

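RNA of caudal sperm was measured in 25 males, 5 per diet. The authors made strand-specific total RNA libraries, used Trim Galore 0.6.7 for trimming, HISAT2 2.2.1 for alignment (GRCm39) and StringTie 2.2.1 for quantification. The deposited values are a signal, counts scaled by DESeq2 size factors, and whole reads came back for 100% of values, within 0.01. For MD-WD male 16 the recovered size factor was 1.0, so its column may hold unscaled counts, and which it holds was not tested. The scalings by TMM and to equal totals start from the recovered reads. Totals were 32455480 to 54108158 reads, which sets counting precision. Differences are on log2(value + 1), which understates low genes, tested with limma 3.58.1 (trended, robust, 5 groups in 1 model) over 28311 genes of mean at least 5, adjusted by Benjamini-Hochberg, in R 4.3.3. edgeR 4.0.16 and DESeq2 1.42.0 were run on the recovered counts. Genes, coordinates and exon lengths are from GENCODE vM39 on GRCm39, and promoters from RefSeq on GRCm38.p6. Other filters, pseudocounts, scalings, groupings and omissions were tried.

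The members and lists were chosen with earlier results of these data known. Members described by library are the 2 of lowest p per comparison, the 3 highest and lowest per kb and pairs whose ratio had p under 0.05. Others were named after their values were seen. Some genes of the lists are not reported here.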

Additional observations from a re-analysis of the deposited data

Results flagged for a closer look

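Groups of 5 were examined for a male whose distance to the nearest other exceeded 0.71 of the group's range. Only 16 of the members named above were examined, in 80 groups in all. They are those picked by lowest p, by level per kb or by a ratio. Others named above, such as Kmt2e, Kmt2a, Ezh1 and Ezh2, were not examined, so the list is not complete. The rule flags about 1 in 20 groups by chance, and 9 met it. In MD-LPD male 9, Kdm2b had 1719.2 against 1266.1 to 1322.6 in the other MD-LPD males, and Smyd3 had 703.9 against 537.1 to 584.7. In MD-WD male 16, Kmt2d had 27214 against 12904 to 16956 in the other MD-WD males, and Smyd3 had 949 against 531.8 to 645.5. In CD male 10, Eed had 852.8 against 384.3 to 488 in the other CD males, and Smyd3 had 996.8 against 410.8 to 548.7. These 3 males are among the 4 of highest Cd79a. In MD-LPD male 14, Ehmt1 had 4823.5 against 3097.3 to 3581.3, and Kmt2b had 6690.8 against 4721.2 to 5063.8. In LPD male 10, Kdm2b had 1655.7 against 1111.2 to 1259.9.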

How the results depend on the processing

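With DESeq2 in place of limma, genes called against CD numbered 123 for WD, 56 for MD-WD, 42 for LPD and 18 for MD-LPD, with 16 in MD-LPD against LPD, 12 in MD-WD against WD and 8 for the interaction. Without a filter limma called 1 gene in MD-WD against CD and 1 in MD-WD against WD, and with only the groups compared 1 in MD-WD against CD and 1 in MD-LPD against LPD. Members at an unadjusted p under 0.05 in LPD against CD numbered 5 with no filter, 0 with TMM, equal totals or edgeR, 6 with DESeq2, 1 with only the groups compared, without the 3 libraries of conflicting label or with groups from the treatment field, 12 with the sperm sum as a covariate and 6 without the 4 libraries of highest Cd79a. For MD-LPD against CD they numbered 1 by the treatment field and 4 with the covariate. For WD against CD they numbered 6 with TMM, 7 with edgeR, 8 by the treatment field and 8 with the covariate. For MD-WD against CD they numbered 0 with equal totals, 5 with edgeR, 7 with DESeq2, 1 without the 3 libraries, 1 by the treatment field and 4 without the 4 libraries. For MD-LPD against LPD they numbered 1 with DESeq2 and 1 with the covariate. For MD-WD against WD they numbered 3 with TMM, 1 with equal totals, 9 with DESeq2, 1 with only the groups compared, 3 without the 3 libraries, 3 by the treatment field and 1 without the 4 libraries. The covariate and the 4 libraries were chosen after seeing the data. Members with a positive r with the sperm sum numbered 2 with equal totals, and those with a negative r 19 with TMM and 30 with equal totals, while the somatic sum had 27 positive and 1 negative with equal totals and 8 negative by the limma slope over all genes, also added after seeing the data. The cause of these shifts was not tested.

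With a replicate block the members at p under 0.05 numbered 0 in LPD against CD, 8 in WD against CD, 1 in MD-WD against CD and 0 in MD-WD against WD. The numbers mark different males. Of 33 same-numbered pairs 12 had deviations correlated over 0.1 (range −0.424 to 0.572, median 0.03), against a median of −0.01 for other pairs across groups. The labels do not say whether males of the same number shared a cohort or batch, and these values cannot settle it. Leaving out 1 library at a time, members at p under 0.05 numbered 0 to 8 in LPD, 5 to 16 in WD and 1 to 12 in MD-WD against CD, and 1 to 10 in MD-WD against WD, and genes called 0 to 1 in LPD, MD-LPD and WD against CD and for the interaction. For the paralog ratios 0 tests passed in all alternatives, and no log2 difference of a member of lowest p changed direction under those run.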
